A study of Mus musculus with 2 samples.

Results

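AT2-rich spots were the spots of 2 mouse lung sections with the highest expression of 4 genes of alveolar type II (AT2) cells: Lamp3, a lysosome and lamellar body protein, Slc34a2, a phosphate transporter, Abca3, the lamellar body lipid transporter, and Napsa, a protease that processes surfactant proteins. The score of a spot was the mean over these genes of the natural log of 1 plus the counts per 10000 (CP10k), and AT2-rich spots were selected on this score as the top 10% of the spots with at least 1000 counts in each section. This gave 186 of 1888 spots over tissue in the control lung and 110 of 1110 in the tumour-bearing lung, together 296 of 2998. The lowest score inside the control group was 1.88 and the next spot outside it had the same score to 3 digits, and both were 1.68 in the tumour-bearing lung. Because the threshold was set within each section, a lower score was enough in the tumour-bearing lung, where 30 spots (2.72%) reached the control threshold.

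The data were Visium spatial transcriptomics, in which messenger RNA from a frozen section is captured on barcoded spots that each cover several cells. The tumour-bearing lung came from a female Balb/c mouse inoculated at 6-8 weeks of age with 1000000 4T1 cells, a mouse mammary carcinoma line that spreads to the lung. The cells were placed orthotopically, in the mammary fat pad, and the mouse was killed after 21-23 days. The control lung came from an untreated mouse, for which the sources used here give no age, sex or day of its own. There was 1 section and 1 library per group, so section, animal, library and tumour cannot be told apart, no test between the groups was possible, and every interval below covers counting error only. A lower level of an AT2 gene in a spot can come from fewer AT2 cells or from less RNA per AT2 cell, which cannot be told apart in these spots.

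AT2 cells are the cuboidal cells of the alveolus that make, store and recycle pulmonary surfactant, a film of phospholipids and surfactant proteins that lowers surface tension. They build its lipids from fatty acids under control of the transcription factor SREBP-1, package them in lamellar bodies and secrete them. They also act as stem cells of the alveolus, giving rise to flat AT1 cells, and take part in local defence through lysozyme, chemokines and antigen presentation.

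The AT2-rich spots held 1906440 counts in the control lung (median 9845 per spot, range 1016 to 23394) and 1103694 in the tumour-bearing lung (median 9945, range 2716 to 23286), from section totals of 20329126 and 14657881. Of the score genes, which chose the spots and are given as a description, Lamp3 was 3.88 CP10k in control and 3.75 in tumour-bearing AT2-rich spots, Slc34a2 17.8 and 13.7, Abca3 7.69 and 5.06, and Napsa 3.64 and 3.20. Most AT2 genes outside the score were higher in these spots too, but the choice of spots depended on the score genes. When Sftpc, Sftpb, Sftpd, Etv5 and Cxcl15 made the score, 77 of the 186 control AT2-rich spots were chosen again. In the tumour-bearing lung 53 of the 110 were. All 4 surfactant protein genes and 18 of 26 other AT2 genes, Sftpa1 counted once, were at least 1.5-fold higher in AT2-rich than in other spots of the same section in both sections, against 4.88% of all 5493 genes tested. The summed surfactant proteins were 1.87-fold higher than in other spots in the control lung and 2.18-fold higher in the tumour-bearing lung. Within single sections, 11.2% of all genes tested in the control and 22.1% in the tumour-bearing lung were at least 1.5-fold higher in AT2-rich than in other spots. Markers of neighbouring cells were higher in AT2-rich spots too. In the tumour-bearing lung, AT2-rich spots were 1.78-fold over other spots for capillary endothelial, 1.75-fold for neutrophil, 1.66-fold for AT1 and 1.65-fold for fibroblast genes, close to the 1.74-fold of other AT2 genes. In the control lung these were 1.41, 1.27, 1.31 and 1.26, against 1.85 for other AT2 genes. Airway club genes were depleted, at 0.278 of the level of other spots in the tumour-bearing and 0.261 in the control lung. Most counts of this list came from Scgb1a1. The secretoglobin Scgb1a1 of airway club cells gave 4.08% of the counts of AT2-rich spots in the control and 5.16% in the tumour-bearing lung. In other spots it gave 16.4% and 19.4%, and the part of this difference in totals in the ratios to other spots was not tested.

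AT2-rich spots were spread through both sections. Of the control spots, 111 (59.7%) touched another AT2-rich spot and the largest patch held 16 spots, and of the tumour-bearing spots 74 (67.3%) touched another and the largest patch held 13. In the tumour-bearing section, a k-means cluster of 164 spots had the highest level of cell cycle genes (40.8 CP10k), and it contained 7 AT2-rich spots. The cluster next in level held 60 spots at 29.5 CP10k, with 1 AT2-rich spot. Distances here and below were measured only to the cluster of 164 spots, so spots called far can lie near the cluster of 60. Within 500 µm of the cluster of 164 spots, its own spots included, lay 33 AT2-rich spots (30.0%), and 77 lay farther away. Of the spots outside the cluster, 26 of 103 AT2-rich spots (25.2%) and 264 of 837 other spots (31.5%) lay within this distance, with median distances of 800 and 755 µm. With the spots of the cluster counted in, the shares were 30.0% and 42.4%, so a smaller share of AT2-rich than of other spots lay near it on either count. Position barcodes are common to Visium capture areas by design, and 858 were found in both sections.

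**Figure D1:**
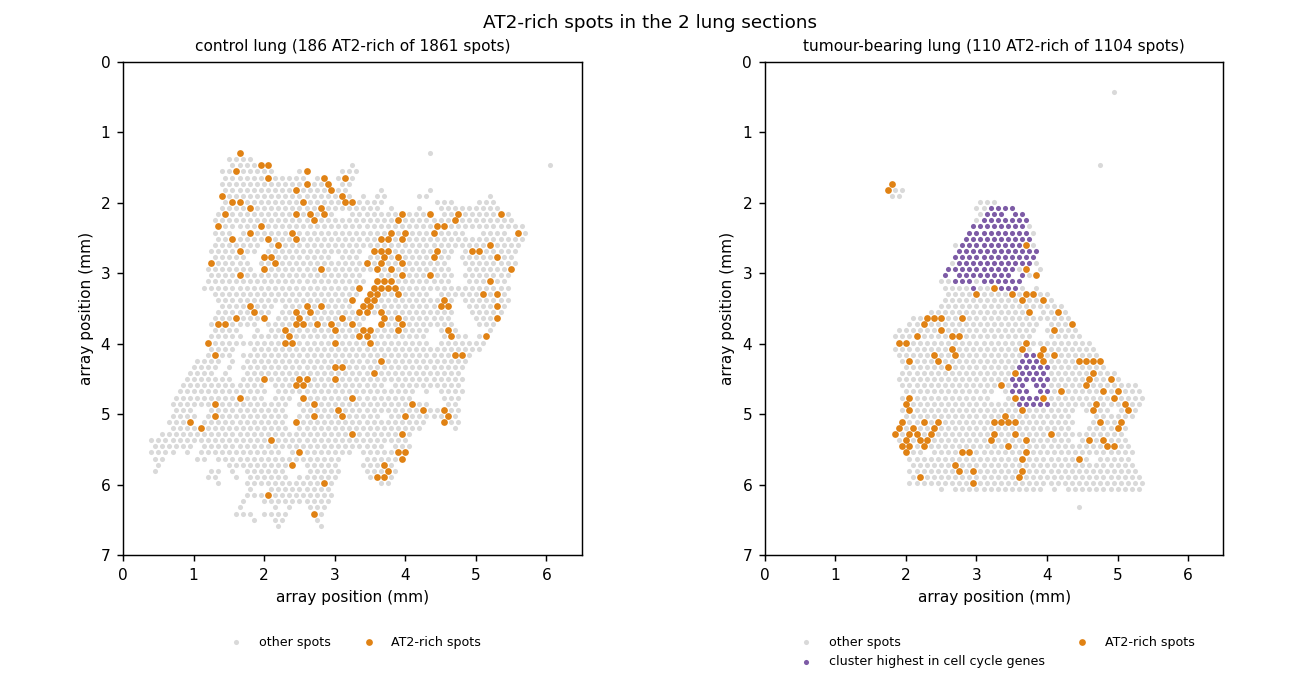
Position of AT2-rich spots (orange) among other spots with at least 1000 counts (grey) in the control and the tumour-bearing section, in mm on the capture array with equal scales. Spots of the k-means cluster highest in cell cycle genes are purple in the tumour-bearing section; the 186 control and 110 tumour-bearing AT2-rich spots are scattered through both sections.

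Across genes outside the score, most differences between the 2 sets of AT2-rich spots were small. Genes with at least 100 counts over both sets were compared as log2 ratios, tumour-bearing over control, with a pseudocount of 0.5 counts. Of 5493 genes, 44 (0.801%) were at least 2-fold higher in the tumour-bearing AT2-rich spots and 68 (1.24%) at least 2-fold lower. The median log2 ratio of all genes was -0.11, with 37.4% of genes above and 62.6% below equal levels, so a list has to be read against a slightly negative centre. Scgb1a1 and haemoglobin genes together took 10.1% of the counts in the tumour-bearing and 5.60% in the control AT2-rich spots. With these genes left out of the totals, the median was -0.04, and 47 genes (0.856%) were at least 2-fold higher and 61 (1.11%) lower.

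Surfactant protein genes were lower in the AT2-rich spots of the tumour-bearing lung, although none of the 4 was past 2-fold. Their summed level was 341 CP10k in the tumour-bearing and 517 CP10k in the control lung, a ratio of 0.660 (95% counting interval 0.652 to 0.668), and 0.693 without Scgb1a1 and haemoglobin genes in the totals. The median log2 ratio of the list was -0.51, with all 4 below equal levels. Sftpc, the hydrophobic surfactant protein made only by AT2 cells in the adult lung, was 427 CP10k in control and 269 in tumour-bearing AT2-rich spots, a log2 ratio of -0.67. Over single spots it ran from 219 to 787 CP10k with a median of 412 in the control lung, and from 51.0 to 531 with a median of 258 in the tumour-bearing lung. The 2 sets of spots overlapped, but 85.5% of the tumour-bearing spots lay below the lower quartile of the control spots and 5.45% above its median. Sftpb, the hydrophobic protein needed for the surfactant film, was 47.1 CP10k in control and 35.1 in tumour-bearing spots (log2 -0.42), with 67.3% of the tumour-bearing spots below the control's lower quartile. Sftpd, a collectin of innate defence, was 8.42 and 5.56 CP10k (log2 -0.60). Sftpa1, the other collectin, was the nearest to equal, at 35.1 and 31.7 CP10k (log2 -0.14), and with the control threshold applied to both sections its log2 ratio was 0.047.

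The lower surfactant protein level was also seen outside AT2-rich spots. In other spots the summed ratio was 0.566 (0.563 to 0.569) and the Sftpc log2 ratio -0.93. Per count of the 4 score genes, AT2-rich spots held 15.7 surfactant protein counts in the control and 13.3 in the tumour-bearing lung, and 12.9 and 10.5 counts of Sftpc. The score genes fixed which spots were taken, so these per-score values are a description.

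**Figure D2:**
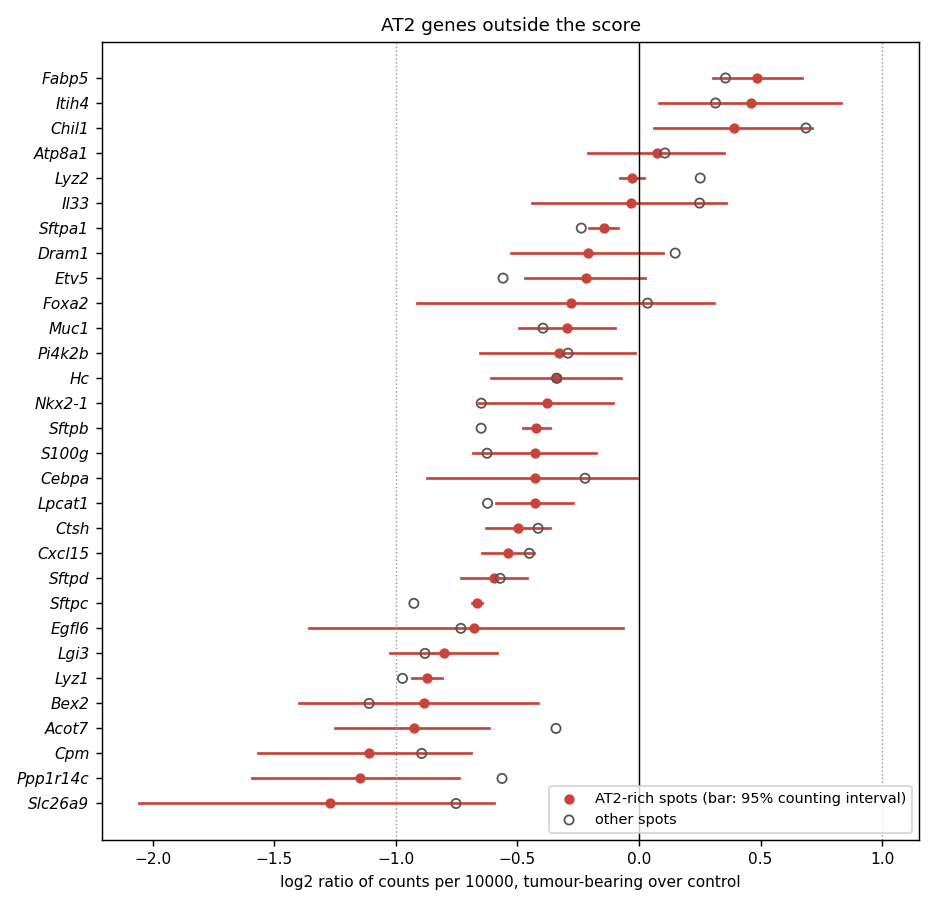
Log2 ratio of tumour-bearing over control CP10k for each tested AT2 gene outside the score, in AT2-rich spots (red, bars are 95% counting intervals) and in other spots (open circles); dotted lines mark 2-fold. Most genes lie left of 0, with Slc26a9, Ppp1r14c and Cpm past 2-fold lower and Fabp5 highest at 0.49.

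The other AT2 genes, 27 of 28 of which passed the count filter, were shifted the same way. None was at least 2-fold higher, 3 were at least 2-fold lower, and 23 were below equal levels, with a median log2 ratio of -0.38 in AT2-rich and -0.40 in other spots. Their summed level was 150 CP10k in the tumour-bearing and 188 CP10k in the control lung, a ratio of 0.794 (0.780 to 0.809). The 4 score genes, which chose the spots and are a description, had a summed ratio close to it, 0.778 (0.744 to 0.814). The list of other AT2 genes also holds Sftpa1, described above. Without it, 22 of 26 tested genes were below equal levels, the median log2 ratio was -0.40 and the summed ratio was 0.769 (0.753 to 0.785), at 118 CP10k in the tumour-bearing and 153 CP10k in the control lung. The 3 past 2-fold were Slc26a9, an epithelial anion transporter (0.467 CP10k in control and 0.190 in tumour-bearing spots), Ppp1r14c, an inhibitor of protein phosphatase 1 (1.21 and 0.544), and Cpm, the membrane carboxypeptidase M (1.12 and 0.516). Cpm was found in 65.6% of control and 36.4% of tumour-bearing AT2-rich spots, and in 50.6% and 19.2% after every spot was thinned to 5000 counts. Acot7, an acyl-CoA thioesterase, was 1.91 CP10k in control and 1.01 in tumour-bearing spots (log2 -0.92), against a log2 ratio of -0.34 in other spots.

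Genes of AT2 identity and surfactant handling named here were lower by less than 2-fold, some by more than the list median. Nkx2-1, the transcription factor of lung epithelium, was 1.89 CP10k in control and 1.45 in tumour-bearing AT2-rich spots (log2 -0.38), and Etv5, a transcription factor that maintains AT2 cells, 2.18 and 1.87 (log2 -0.22). The count intervals of the ratios were 0.633 to 0.927 for Nkx2-1 and 0.722 to 1.02 for Etv5, so the gap in Etv5 was within counting error. Ctsh, a cathepsin that helps process surfactant protein B, had a log2 ratio of -0.50, and Lpcat1, which makes the main surfactant phosphatidylcholine, of -0.43. The chemokine Cxcl15 was 13.3 CP10k in control and 9.15 in tumour-bearing spots (log2 -0.54). Above equal levels were Fabp5, a fatty acid binding protein (2.91 and 4.08 CP10k, log2 0.49), Itih4, an acute phase protein (log2 0.46), and Chil1, a chitinase-like protein (log2 0.39). Fabp5 was above the control median in 70.0% of the tumour-bearing spots.

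The lysozyme genes Lyz1 and Lyz2 differed from each other. Both encode the antibacterial enzyme lysozyme and lie side by side on chromosome 10; AT2 cells express both, and macrophages and neutrophils express Lyz2. Lyz1 was 45.1 CP10k in control and 24.7 in tumour-bearing AT2-rich spots (log2 -0.87), with spot medians of 41.1 and 22.3 and 71.8% of the tumour-bearing spots below the control's lower quartile. Lyz2 was 48.3 and 47.3 CP10k (log2 -0.03, and 0.04 without Scgb1a1 and haemoglobin genes in the totals), with spot medians of 43.6 and 41.5. The number of Lyz1 counts per Lyz2 count was 0.934 in the control and 0.521 in the tumour-bearing AT2-rich spots. The transcripts are close paralogs, so the split of reads between them depends on unique mapping. Their promoters are shown because the pair gave different ratios: the 150 bases before each start, from RefSeq on GRCm38.p6, minus strand, at chr10:117292869-117293018 for Lyz1 and chr10:117282273-117282422 for Lyz2. Capitals mark the 21 positions at which they differ when set side by side without gaps, and the other 129 are identical.
Lyz1: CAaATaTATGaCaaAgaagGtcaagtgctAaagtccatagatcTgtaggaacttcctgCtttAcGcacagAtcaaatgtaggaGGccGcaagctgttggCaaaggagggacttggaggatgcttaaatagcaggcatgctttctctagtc
Lyz2: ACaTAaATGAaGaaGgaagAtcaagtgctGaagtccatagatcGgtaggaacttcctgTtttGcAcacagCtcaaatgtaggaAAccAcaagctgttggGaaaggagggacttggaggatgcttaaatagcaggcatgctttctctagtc
The stretch next to the start held no difference, and the differing positions lay farther upstream. No binding or methylation was measured at either promoter.

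Fatty acid and phospholipid synthesis genes, the lipid side of surfactant, were on balance close to the centre of all genes. Of 35 genes 23 passed the count filter, none was past 2-fold in either direction, 7 were above and 16 below equal levels, and the median log2 ratio was -0.12, against -0.11 over all genes. The summed level was 37.9 CP10k in the tumour-bearing and 43.4 CP10k in the control lung, a ratio of 0.874 (0.842 to 0.907), and 0.917 without Scgb1a1 and haemoglobin genes in the totals. Fasn, the fatty acid synthase, was 3.60 CP10k in control and 2.68 in tumour-bearing AT2-rich spots, a ratio of 0.744 (0.647 to 0.854). Over single spots its median was 3.32 in the control and 2.29 CP10k in the tumour-bearing lung, and both sets of spots began at 0. Gpam, which carries out the first step of glycerolipid synthesis in mitochondria, was 2.01 and 1.20 CP10k, a ratio of 0.595 (0.485 to 0.727), and was found in 81.2% of control and 68.2% of tumour-bearing spots. In other spots the log2 ratios were -0.69 for Fasn and -0.67 for Gpam, against -0.42 and -0.74 in AT2-rich spots, so both genes were lower in the tumour-bearing section inside and outside AT2-rich spots.

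Within the lipid list, members of the same step differed in size. Among the elongases, Elovl1, which acts on very long chains, was 6.43 CP10k in control and 3.91 in tumour-bearing spots (log2 -0.72), while Elovl5, which acts on polyunsaturated chains, had a log2 ratio of -0.16. Of the acyl-CoA synthetases, Acsl1 had a log2 ratio of -0.99 on 23 tumour-bearing and 80 control counts, and Acsl4 of -0.12. The desaturases Scd1 and Scd2 were at or just above equal levels, at 6.57 and 7.18 CP10k for Scd1 (log2 0.13) and 6.48 and 6.51 for Scd2 (log2 0.01) in control and tumour-bearing spots. Scd1 was below equal levels in other spots (log2 -0.32). Chka, the choline kinase, had a log2 ratio of -0.56, and Pgs1, which makes the precursor of phosphatidylglycerol and cardiolipin, of -0.54. Srebf1, the gene of SREBP-1, was 0.619 CP10k in control and 0.670 in tumour-bearing spots, with a ratio of 1.08 (0.799 to 1.46) that included 1. Its partner Scap had a ratio of 1.16 (0.840 to 1.58). Lpin2, a phosphatidate phosphatase, had the highest log2 ratio of the list, 0.38 (interval of the ratio 1.05 to 1.60), and a log2 ratio of -0.091 with the control threshold in both sections.

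Cholesterol and lipid uptake genes had summed ratios near 1, with median log2 ratios of -0.15 and -0.12. Of 12 tested cholesterol synthesis and uptake genes none was past 2-fold and 8 were below equal levels, near the 62.6% of all genes tested. The summed ratio of 0.965 (0.895 to 1.04) became 1.01 without Scgb1a1 and haemoglobin genes in the totals. Srebf2, the gene of SREBP-2, which drives cholesterol synthesis genes, was 1.08 CP10k in control and 0.797 in tumour-bearing AT2-rich spots (log2 -0.43). Fdps, of the mevalonate pathway, was 0.902 and 1.08 (log2 0.26), and the interval of its ratio, 0.938 to 1.52, included 1. Of 12 tested lipid storage, uptake and efflux genes, Fabp5 among them again, none was past 2-fold and 8 were below equal levels, with a summed ratio of 1.02 (0.983 to 1.06). In it, Apoe, the lipid carrier protein that macrophages also make, had a ratio of 1.54 (1.41 to 1.68), with spot medians of 5.50 CP10k in control and 7.70 in tumour-bearing spots, and 71.8% of the tumour-bearing spots were above the control median. Lpl, the lipoprotein lipase, had a log2 ratio of 0.59 on 67 tumour-bearing and 77 control counts.

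**Figure D3:**
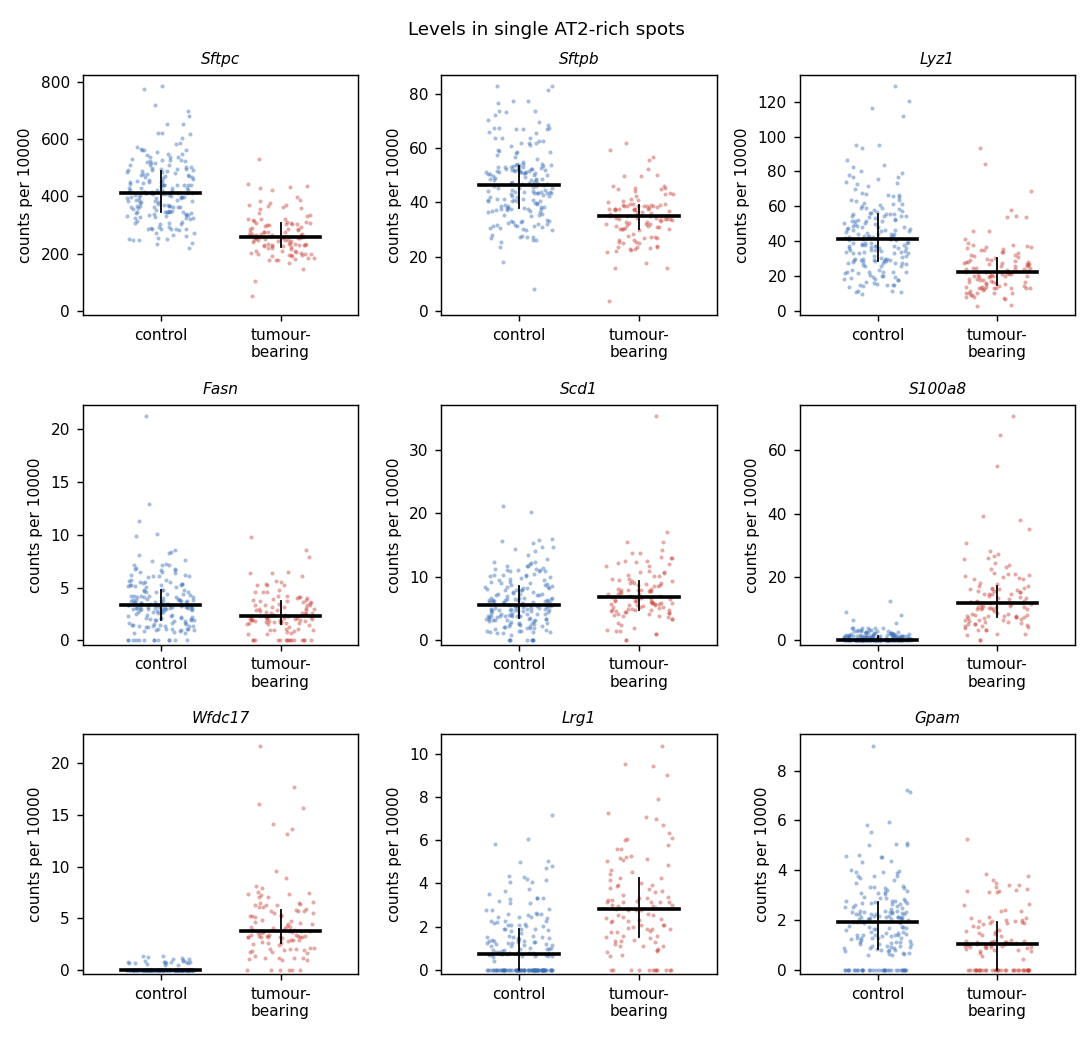
CP10k of 9 genes in each AT2-rich spot of the control (blue) and the tumour-bearing (red) lung, each panel with its own linear axis; horizontal lines are medians and vertical lines span the quartiles. Sftpc, Sftpb and Lyz1 are lower in most tumour-bearing spots, Fasn, Scd1 and Gpam overlap widely, and S100a8, Wfdc17 and Lrg1 have medians of 11.8, 3.76 and 2.83 CP10k against 0, 0 and 0.749 in the control spots.

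AT1 genes were lower in the tumour-bearing AT2-rich spots, and genes of the transitional state lay on both sides of equal levels. All 15 AT1 genes were below equal levels, against 62.6% of all genes tested, without any past 2-fold. Their summed ratio was 0.790 (0.770 to 0.810). The water channel Aqp5 was 4.63 CP10k in control and 2.34 in tumour-bearing spots (log2 -0.98), and Ager, the receptor that marks AT1 cells, 32.3 and 24.3 (log2 -0.41). In other spots the summed AT1 ratio was lower, at 0.622 (0.616 to 0.628). Of 14 tested genes of alveolar transitional epithelium, the state between AT2 and AT1 cells after injury, none was past 2-fold and 7 lay on each side of equal levels, with a summed ratio of 0.844 (0.802 to 0.889). The keratins Krt7 and Krt18 of that list had log2 ratios of -0.76 and -0.71.

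Genes of the acute phase and of IL-6 signaling were higher in the AT2-rich spots of the tumour-bearing lung. All 7 tested acute phase and injury genes were above equal levels and 3 were at least 2-fold higher, against 37.4% and 0.801% of all genes tested. The list had a summed ratio of 1.93 (1.80 to 2.08) in AT2-rich and 2.36 (2.32 to 2.41) in other spots. Lrg1, an acute phase glycoprotein, was 1.29 CP10k in control and 3.12 in tumour-bearing AT2-rich spots (log2 1.27) and was found in 57.0% and 89.1% of them. Saa3, the extrahepatic serum amyloid A, had 3 counts in the control and 108 in the tumour-bearing spots, a ratio of 62.2 with a wide interval (20.7 to 306), and was found in 1.61% and 40.0% of the spots. Retnla, a resistin-like protein of epithelium and macrophages, was 0.210 and 1.02 CP10k (log2 2.28) against a log2 ratio of 0.30 in other spots, and was found in 19.4% and 37.3% of AT2-rich spots. Complement C3, which AT2 cells make, was 3.93 CP10k in control and 6.22 in tumour-bearing spots (log2 0.66), and Lcn2, the siderophore-binding lipocalin that neutrophils also carry, 0.928 and 1.40 (log2 0.60). Serpina3n, a protease inhibitor of the acute phase named for its rank among all genes, was 0.561 and 1.92 CP10k (log2 1.77).

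All 11 tested IL-6 and Stat3 genes were above equal levels and 2 were at least 2-fold higher, against 37.4% and 0.801% of all genes tested. The list had a summed ratio of 1.29 (1.22 to 1.38) in AT2-rich and 1.12 (1.10 to 1.14) in other spots. Socs3, the feedback inhibitor of Stat3, was 0.220 CP10k in control and 0.834 in tumour-bearing AT2-rich spots, a ratio of 3.78 (2.60 to 5.59), and was found in 20.4% and 52.7% of the spots. Junb, an AP-1 factor, was 0.299 and 0.734 CP10k (log2 1.29). The shared receptor subunit Il6st had a log2 ratio of 0.13 and the factor Cebpb of 0.33.

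Interferon-gamma response and antigen presentation genes were higher as well. Of 8 tested interferon-gamma genes, 7 were above equal levels and 2 at least 2-fold higher, against 37.4% and 0.801% of all genes tested. The list had a summed ratio of 1.88 (1.72 to 2.06) in AT2-rich and 2.86 (2.78 to 2.95) in other spots. Igtp, an interferon-induced GTPase, was 0.210 CP10k in control and 0.553 in tumour-bearing AT2-rich spots (log2 1.39), and Gbp2, a guanylate-binding protein, 0.598 and 1.22 (log2 1.03). The transcription factor Irf1 was 1.10 CP10k in control and 1.75 in tumour-bearing spots (log2 0.67). Of 14 tested MHC class I and immunoproteasome genes, 10 were above equal levels and none was past 2-fold. Their list had a summed ratio of 1.35 (1.31 to 1.38) in AT2-rich and 1.55 (1.53 to 1.56) in other spots. B2m, the invariant chain of class I, was 13.6 and 22.9 CP10k (log2 0.75), and 95.5% of the tumour-bearing spots were above the control median. MHC class II had a summed ratio of 1.10 (1.06 to 1.14) in AT2-rich and 1.35 (1.34 to 1.37) in other spots, and its invariant chain Cd74 was 19.4 CP10k in control and 19.0 in tumour-bearing AT2-rich spots. The type I interferon list had a summed ratio of 1.18 (1.06 to 1.32) in AT2-rich and 1.57 (1.52 to 1.63) in other spots. Of its 4 tested genes none was past 2-fold, 1 was above and 3 were below equal levels, with a median log2 ratio of -0.04.

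Stat proteins bind DNA at the letters TTCNNNGAA, which read the same on both strands. In the 250 bases before the start, this motif was in 4 of the 5 tested interferon-gamma genes that have a RefSeq window (Irf1, Gbp7, Igtp and Irf8) and in 1 of 10 such IL-6 and Stat3 genes (Socs3), against 8.13% of the 27025 genes with a window. The windows of Socs3, Irf1 and Igtp, which were higher in the tumour-bearing AT2-rich spots, are shown on GRCm38.p6 with the match in capitals: Socs3 at chr11:117969367-117969616 on the minus strand, Irf1 at chr11:53769764-53770013 and Igtp at chr11:58199306-58199555 on the plus strand.
Socs3: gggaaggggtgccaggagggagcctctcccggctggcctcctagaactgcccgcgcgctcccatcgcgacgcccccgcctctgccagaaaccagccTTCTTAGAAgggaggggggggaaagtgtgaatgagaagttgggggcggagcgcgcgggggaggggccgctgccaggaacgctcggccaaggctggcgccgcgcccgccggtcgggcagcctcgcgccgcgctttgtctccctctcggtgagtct
Irf1: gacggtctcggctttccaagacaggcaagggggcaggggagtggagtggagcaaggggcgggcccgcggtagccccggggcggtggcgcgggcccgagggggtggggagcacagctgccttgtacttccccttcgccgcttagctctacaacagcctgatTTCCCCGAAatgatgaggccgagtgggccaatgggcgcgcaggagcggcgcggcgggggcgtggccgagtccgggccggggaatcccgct
Igtp: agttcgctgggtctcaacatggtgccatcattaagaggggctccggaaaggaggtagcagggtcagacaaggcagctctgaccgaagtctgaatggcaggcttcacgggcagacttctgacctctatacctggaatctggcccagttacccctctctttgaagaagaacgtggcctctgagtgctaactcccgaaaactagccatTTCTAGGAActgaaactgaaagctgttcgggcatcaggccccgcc
The match began 154 bases before the start in Socs3, 90 in Irf1 and 45 in Igtp. Factor binding was not measured, and a match of letters is a description of the sequence.

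**Figure D4:**
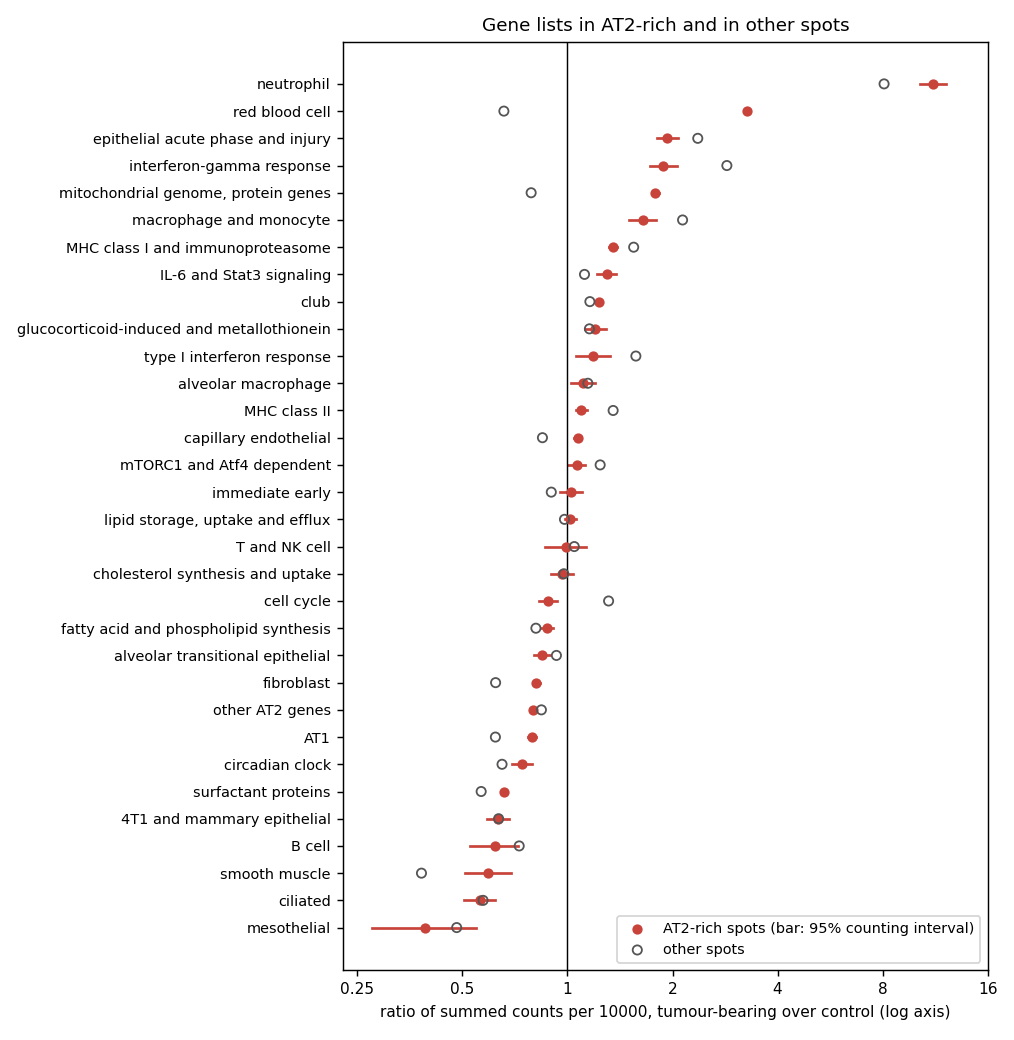
Ratio of summed CP10k, tumour-bearing over control (log axis), for each gene list in AT2-rich spots (red, bars are 95% counting intervals) and in other spots (open circles); cardiac muscle, at 0.0121, and the score genes are left out. Neutrophil genes are farthest to the right at 11.2 in AT2-rich spots, and red blood cell and mitochondrial genes lie above 1 in AT2-rich spots and below 1 in other spots.

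Transcripts of neutrophils and red blood cells in the AT2-rich spots differed between the sections by more than any AT2 list. Neutrophil genes summed to 3.32 CP10k in the control and 37.1 in the tumour-bearing lung, a ratio of 11.2 (10.3 to 12.2), and all 5 tested of 12 were at least 2-fold higher. The calprotectin subunits S100a8 and S100a9 carried most of it, at 1.03 and 1.49 CP10k in control and 13.9 and 17.8 in tumour-bearing spots, and the receptor Csf3r was 0.236 and 1.09. Neutrophil genes were above the control median in 100% of the tumour-bearing spots and above the highest control spot in 25.5%. In other spots the ratio was 8.08 (7.83 to 8.33). Wfdc17, a secreted whey acidic protein family member of myeloid cells, had the highest ratio among genes with at least 200 counts, 40.7 (26.6 to 65.5), with 22 control and 518 tumour-bearing counts, and was found in 11.8% and 94.5% of the spots. Of 5 tested macrophage and monocyte genes 3 were at least 2-fold higher, against 0.801% of all genes tested, and 1 was below equal levels. The summed ratio was 1.64 (1.51 to 1.79) in AT2-rich and 2.14 (2.08 to 2.19) in other spots. The complement gene C1qa was 0.572 CP10k in control and 1.84 in tumour-bearing AT2-rich spots. Neutrophils and macrophages express Lcn2, Socs3, Lyz2, C3 and MHC genes too, and the part of these cells in the acute phase, IL-6 and interferon values of AT2-rich spots was not tested.

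Blood and mitochondrial transcripts had opposite ratios inside and outside AT2-rich spots. Red blood cell genes were 151 CP10k in control and 494 in tumour-bearing AT2-rich spots, a ratio of 3.26 (3.22 to 3.31), with all 5 tested at least 2-fold higher, while in other spots the ratio was 0.657 (0.655 to 0.660). Over single AT2-rich spots the median was 96.8 CP10k in the control and 490 in the tumour-bearing lung, and 86.4% of the tumour-bearing spots were above the control median. The difference between the AT2-rich and the other log2 ratio was highest for haemoglobin genes and Alas2, the haem synthesis enzyme of red cells, with log2 ratios of 2.05 and -0.55 for Hbb-bt and 2.04 and -0.38 for Alas2. The protein-coding genes of the mitochondrial genome were a list chosen after values were seen. They were 78.9 CP10k in control and 141 in tumour-bearing AT2-rich spots, a ratio of 1.79 (1.75 to 1.83). All 10 tested were above equal levels and 4 at least 2-fold higher, against 37.4% and 0.801% of all genes tested. In other spots their ratio was 0.787 (0.782 to 0.792). AT2-rich spots within 500 µm of the cluster highest in cell cycle genes were at 0.831 (0.795 to 0.868) of the control level for the mitochondrial genes, and those farther away at 2.23 (2.18 to 2.28), so the ratio above 1 came from the farther spots. Capillary endothelial genes had a ratio of 1.07 (1.04 to 1.10) in AT2-rich and 0.848 (0.840 to 0.856) in other spots. The part of blood and capillary content in the AT2 values was not tested.

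**Figure D5:**
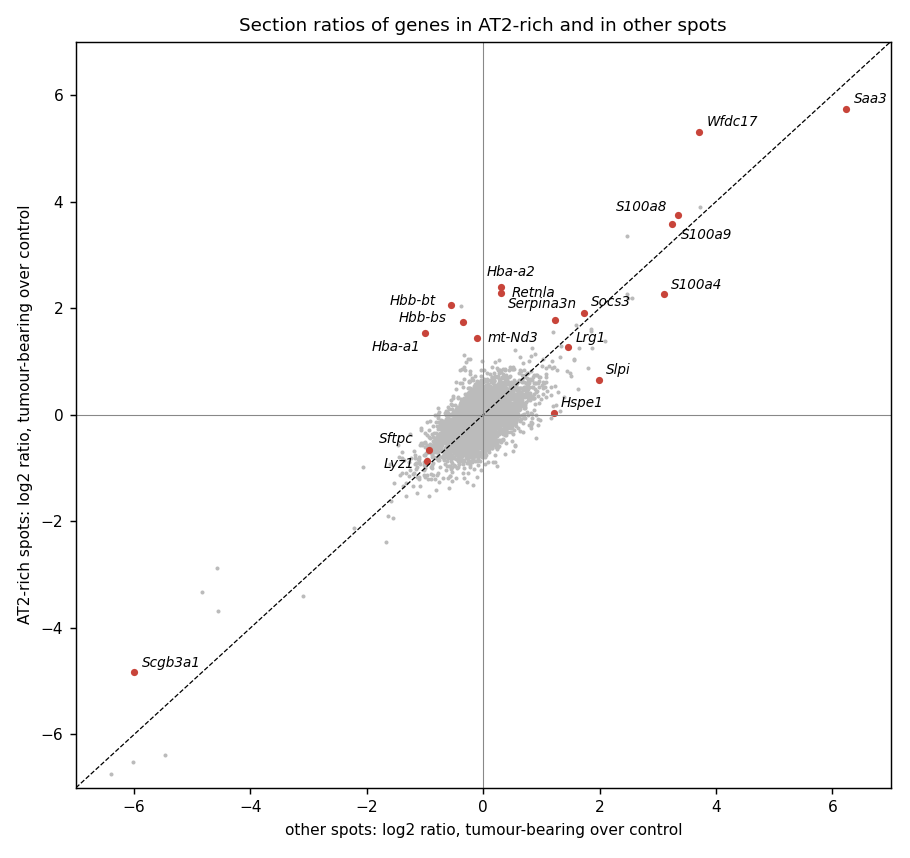
Log2 ratio of tumour-bearing over control CP10k of the 5493 genes tested, in AT2-rich spots (vertical axis) against other spots (horizontal axis); the dashed line marks equal ratios and 5 cardiac genes (Csrp3, Sln, Myl7, Myl4 and Myh6) lie outside the axes. Haemoglobin genes, mt-Nd3 and Retnla lie above the line, Slpi and Hspe1 below it, and Saa3, Wfdc17 and S100a8 are high in both.

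The lowest ratios in AT2-rich spots belonged to muscle. All 7 tested cardiac muscle genes were at least 2-fold lower, at 15.8 CP10k in control and 0.190 in tumour-bearing AT2-rich spots. The summed ratio was 0.0121 in AT2-rich and 0.0134 (0.0124 to 0.0144) in other spots, so the section difference was present in both. Of the control counts in AT2-rich spots, 41.8% came from 5 spots. Myl7 and Myh6, the atrial myosin light chain and a cardiac myosin heavy chain, had 819 and 479 control counts and 0 in the tumour-bearing spots, and were at least 158-fold and 92.4-fold lower when 0 was read as up to 3 counts over the set of spots. The upper ends of the 95% counting intervals of their ratios were 0.00780 and 0.0134. Leaving out the control spots with over 5 cardiac counts was an alternative chosen after seeing the data, and it kept 107 of the 186. It left 36 genes at least 2-fold lower, against 68 of 5493 (1.24%) with all spots. With fewer control spots fewer genes can reach the count minimum, so the 2 counts do not have the same base. The 7 cardiac genes were among the 68, and their part in the drop was not tested. The secretoglobin Scgb3a1 of upper airway cells had 465 control and 9 tumour-bearing counts (log2 -4.83). Mmp2, a matrix metalloproteinase of fibroblasts, was 1.80 and 0.670 CP10k (log2 -1.42). Their log2 ratios in other spots were -6.00 and -0.80. Fibroblast genes had a summed ratio of 0.814 (0.796 to 0.833), with 2 of 11 tested at least 2-fold lower, and smooth muscle genes of 0.593 (0.510 to 0.687). In other spots these 2 lists had ratios of 0.622 (0.617 to 0.628) and 0.382 (0.369 to 0.395).

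Some genes had lower section ratios in AT2-rich spots than in other spots. Slpi, a secreted protease inhibitor of epithelium, had a log2 ratio of 0.66 in AT2-rich and 1.98 in other spots, and Hspe1, a mitochondrial chaperone, of 0.04 and 1.21. Snhg3, Snrpd1, a splicing factor, and Aprt, of purine salvage, had log2 ratios of -0.67, -0.58 and -0.10 in AT2-rich and 0.52, 0.54 and 0.97 in other spots. Cell cycle genes were 16.7 CP10k in control and 14.7 in tumour-bearing AT2-rich spots, a ratio of 0.880 (0.828 to 0.934), and had a ratio of 1.31 (1.29 to 1.34) in other spots, which include most of the cluster highest in these genes. Of 8 tested cell cycle genes in AT2-rich spots, Hmgb2, a chromatin protein, was at least 2-fold higher (log2 1.02) and Stmn1, a microtubule regulator, at least 2-fold lower (log2 -1.34). The 4T1 and mammary epithelial list was 14.3 CP10k in control and 9.05 in tumour-bearing AT2-rich spots, with 7 of its 10 genes at 0 in the tumour-bearing and 5 in the control spots. Of its counts, 2590 of 2735 in the control and 937 of 999 in the tumour-bearing spots came from Wfdc2, which the lung epithelium expresses, so the sum does not measure 4T1 cells.

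Within the tumour-bearing section, the 33 AT2-rich spots within 500 µm of the cluster highest in cell cycle genes differed from the 77 farther ones in blood, mitochondrial and immune transcripts. Red blood cell genes were 230 CP10k near and 617 far, and mitochondrial genes 65.5 and 176, both with a ratio of 0.372. Ciliated cell genes had a ratio of 0.572 (0.456 to 0.712), near over far, and club cell genes of 0.709 (0.696 to 0.722). Only 1 of the 10 ciliated genes passed the count filter, and most club counts in AT2-rich spots came from Scgb1a1. MHC class II genes were 55.9 CP10k near and 31.8 far, a ratio of 1.76 (1.66 to 1.87), interferon-gamma genes 12.8 and 7.67, a ratio of 1.67 (1.48 to 1.90), and macrophage and monocyte genes 12.4 and 7.49, a ratio of 1.66 (1.46 to 1.88). Against the control AT2-rich spots, MHC class II was 1.55-fold near and 0.884-fold far, so its summed ratio above 1 came from the near spots. Neutrophil genes were high at both distances, at 9.42 times the control level near and 12.0 times far. Surfactant protein genes were lower than in the control at both, with ratios of 0.577 near and 0.698 far. Fatty acid and phospholipid synthesis genes were 38.3 CP10k near and 37.7 far, a ratio of 1.02 (0.952 to 1.08). Cell cycle genes were 19.7 and 12.3 CP10k, a ratio of 1.60 (1.45 to 1.77), and the near spots include 7 that belong to that cluster. Spots of 1 section are not replicates, and these ratios describe this section.

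Rhythmic and hormone-responsive genes also differed. Circadian clock genes had a summed ratio of 0.742 (0.693 to 0.793) in AT2-rich and 0.650 (0.634 to 0.665) in other spots. Of 8 tested, 7 were below equal levels, against 62.6% of all genes tested. Per1, a clock repressor, was 2.33 CP10k in control and 1.48 in tumour-bearing AT2-rich spots (log2 -0.65), and Dbp, a clock output factor, 3.21 and 2.17 (log2 -0.56). Glucocorticoid-induced and metallothionein genes had a summed ratio of 1.20 (1.12 to 1.29), and Tsc22d3, a glucocorticoid-induced gene, was 3.26 and 4.53 CP10k (log2 0.48). Immediate early genes had a ratio of 1.02 (0.954 to 1.10). The hour at which each lung was taken is not given in the sources used here.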

How the data were processed

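Per the file headers and labels, the authors made the deposited counts, molecules counted once by their identifiers for each gene in each tissue-covered spot and not normalized, with Space Ranger 1.3.1 on mm10. Spots with at least 1000 counts were kept (1861 control, 1104 tumour-bearing), and their counts in AT2-rich and other spots were summed per gene and given per 10000. Of 32285 features, 5493 genes outside the score had at least 100 counts. Log2 ratios used a pseudocount of 0.5; ratio intervals are exact 95% binomial intervals computed on how a gene's counts divide between the sets of spots. A median near 10000 counts per spot gives a gene at 1 CP10k about 1 count a spot, so genes were read from sums. Spots of the tumour-bearing section were grouped into 5 clusters by k-means on 20 principal components of 2000 variable genes. Python 3.11.15, numpy 2.4.6, scipy 1.17.1, pandas 2.3.3 and scikit-learn 1.9.0 were used, and the scripts were tested on simulated counts.

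No p-value over spots was computed, since spots of 1 section are not replicates. The members and the 33 gene lists were chosen with earlier results of these data known. Named were tested members of the surfactant, other AT2 and lipid synthesis lists, from other lists the 3 with most counts and the 2 with the largest log2 ratio, the 10 highest and 10 lowest genes with at least 200 counts, and the 5 highest and lowest differences from other spots. A symbol of several features was taken as the one with most counts. Of 477 distinct list genes, 1 was not in the table. Alternatives were other totals, shares of spots (5% and 20%), thresholds, score genes, count and fold minimums, pseudocounts, thinning to 5000 counts, means over spots, and spots far from the cluster or low in airway genes. Leaving out spots with cardiac transcripts, and Sftpa1 from the other AT2 list, was chosen after seeing the data. Promoters were matched by symbol to RefSeq windows. Doublets do not apply to spots.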

Additional observations from a re-analysis of the deposited data

Results flagged for a closer look

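In 4 gene lists the ratios, tumour-bearing over control, lay on opposite sides of 1 in AT2-rich and in other spots, with both counting intervals apart from 1. The lipid storage, T and NK cell and immediate early lists also lay on opposite sides, but their intervals in AT2-rich spots included 1. Red blood cell genes had ratios of 3.26 and 0.657. Protein-coding genes of the mitochondrial genome had ratios of 1.79 and 0.787. Capillary endothelial genes had ratios of 1.07 and 0.848. Cell cycle genes had ratios of 0.880 and 1.31. Within the tumour-bearing section, the ratios of AT2-rich spots to the control differed with distance to the cluster highest in cell cycle genes. They were 1.52 within 500 µm and 4.08 farther away for red blood cell genes, 0.831 and 2.23 for mitochondrial genes, and 1.18 and 0.739 for cell cycle genes. Mitochondrial and cell cycle genes thus lay on both sides of 1 within AT2-rich spots. Capillary genes were at 0.963 (0.925 to 1.001) near and 1.12 far, so the near value was within counting error of 1. With 1 library per group, the difference between AT2-rich and other spots was not tested for any of them, and each interval covers counting error only.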

How the results depend on the processing

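No paired analysis was possible because each group holds 1 sample, and no replicate could be left out. Summed log2 ratios, tumour-bearing over control, were -0.60 for surfactant proteins, -0.33 for other AT2 genes, -0.19 for fatty acid and phospholipid synthesis and 3.48 for neutrophil genes, and all 4 kept their sign in each of the 12 alternatives whose spots were not chosen on members of these lists. Other AT2 genes were -0.38 without Sftpa1, an alternative chosen after seeing the data. In that order, they were -0.53, -0.26 and -0.12 without Scgb1a1 and haemoglobin genes in the totals, -0.54, -0.28 and -0.14 also without mitochondrial, surfactant protein and immunoglobulin genes, and -0.49, -0.23 and -0.089 after centring on the median. Surfactant and neutrophil values were -0.63 and 3.66 in the top 5% of spots and -0.67 and 3.15 in the top 20%. With the control threshold in both sections (30 tumour-bearing spots) the 4 values were -0.49, -0.16, -0.085 and 3.25, and club genes (-0.18), Sftpa1 (0.047) and Lpin2 (-0.091) changed sign; the cause was not tested. Spots chosen by Sftpc, Sftpb, Sftpd, Etv5 and Cxcl15 gave -0.67, -0.41 for other AT2 genes and 3.27 for neutrophil genes, which is no support since these genes are members of the lists. Surfactant and other AT2 values were -0.72 and -0.42 after thinning, -0.58 and -0.29 as means over spots, -0.52 and -0.36 without spots within 500 µm of the cluster, where MHC class II was -0.18, and -0.56 and -0.26 without control spots rich in cardiac transcripts. Genes at least 2-fold higher and lower, 44 and 68, were 27 and 45 in the top 5% of spots, 88 and 105 in the top 20%, 20 and 29 after thinning, 248 and 421 with a minimum of 20 counts, 13 and 4 with 500, and 189 and 461 past 1.5-fold. The lower count was 152 with the control threshold and 36 without cardiac-rich spots, and the higher count 29 without spots near the cluster. The number of genes that reached the count minimum changed with the spots, thinning and minimum used, and is not given for these settings. These counts are therefore not shares of the same set of genes, and a change in them is not read as a change in ratios. Over all alternatives, 61 of 947 values of named genes and 23 of 430 of summed lists had the other sign, and 4 of these (2 each) belonged to a gene or list with a counting interval apart from equal levels. Cholesterol genes kept their sign in 8 of 13 alternatives and T and NK cell and immediate early genes in 6, as did Scd2 and Lyz2 in 5 and Il33 in 2. In all, 816 gene values and 271 list values stayed within their counting interval. Depth limits genes under 1 CP10k, such as Srebf1, whose counting interval ran from 0.799 to 1.46.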
